A study of Mus musculus with 36 samples.

Results

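The vacuolar proton pump (V-ATPase), its chloride exchanger and the proteins of the lysosome were followed in bulk RNA from mouse tibiae through 36 genes. They were listed by symbol and comprise 9 subunits of the membrane part of the pump (V0), 11 subunits of its cytosolic part (V1), 2 accessory proteins, the chloride-proton exchanger *Clcn7* with its partner *Ostm1*, 8 cathepsins, the membrane glycoproteins *Lamp1* and *Lamp2*, and the glycosidases *Hexa* and *Gusb*. All 36 were present among the 56246 genes of the table, and 34 averaged 0.5 TPM or more and were tested among 16123 genes. The others, *Atp6v1b1* and *Atp6v1c2*, are given by their levels only.

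Libraries came from 12 wild-type mice, 12 LMNA G/G mice injected with saline and 12 LMNA G/G mice injected with ABE. Each group held 6 males and 6 females, and no injection day is given for the wild-type mice. LMNA G/G mice carry both copies of a bacterial artificial chromosome with the human LMNA gene and its progeria mutation, beside their own Lmna genes, on a C57BL/6J background. ABE is an adenine base editor directed at the mutant base, carried by a pair of AAV9 vectors. Injections were retro-orbital, 14 days after birth, and tibiae were taken at 6 months of age, without epiphyses and marrow. The wild-type mice are numbered apart from the others, and any batch that this reflects cannot be told apart from genotype, and 3 libraries labelled LMNA G/G hold the letters WT in their titles. Libraries held 48064068 to 116206662 reads on genes. TPM are reads corrected for gene length and library total, and scaled TPM were divided by each library's median ratio to the other libraries, a factor that was 0.938 to 1.57 in wild-type libraries, 0.835 to 1.32 with saline and 0.219 to 1.32 with ABE. The lowest factor was that of a female, ABE replicate 1. Differences are on log2(scaled TPM + 0.5), which understates the change of low genes, from limma with sex as a covariate, and a gene is called higher or lower at a Benjamini-Hochberg adjusted p under 0.05. Intervals of differences are 95% intervals. A level in bulk RNA cannot tell fewer cells of a type apart from less RNA in each cell.

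The V-ATPase burns ATP in its V1 part to turn a ring in its V0 part, which carries protons across a membrane. In most cells it acidifies lysosomes, where cathepsins and glycosidases digest proteins and sugars. In the osteoclast, the cell that resorbs bone, lysosomes fuse with the cell surface, and pumps that hold the a3 subunit (*Tcirg1*) and the d2 subunit (*Atp6v0d2*) acidify the space above the bone, while *Clcn7* with *Ostm1* balances the charge with chloride. The acid dissolves mineral and cathepsin K (*Ctsk*) digests collagen. Loss of TCIRG1, CLCN7 or OSTM1 causes osteopetrosis, a disease of dense bone.

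Many lysosomal genes hold in their promoters the letters TCACGTGA or the shorter CACGTG, which are bound by TFEB and its relatives. Of the 36 members, 28 matched a RefSeq promoter entry (GRCm38.p6, a window around the start of transcription). TCACGTGA, which reads the same on both strands and contains CACGTG, was found in 6 of these 28 members (21.4%), against 304 of all 27025 genes with an entry (1.12%). By window, 6 of 35 member windows (17.1%) held it, against 320 of all 32851 (0.974%). CACGTG was found in 9 of 28 members (32.1%), against 8.09% of all genes, and in 25.7% of member windows, against 7.15% of all windows. The 6 members with TCACGTGA and *Lamp1*, which held CACGTG 4 times, are shown because genes of the pump, the exchanger, the proteases and the lysosomal membrane hold the same letters. Each line runs 5′ to 3′ along the gene's strand, from 140 bases before the start through the first 20 transcribed bases, and capitals mark TCACGTGA (for *Lamp1*, CACGTG).
Ctsa (chr2:164833633-164833792, plus strand): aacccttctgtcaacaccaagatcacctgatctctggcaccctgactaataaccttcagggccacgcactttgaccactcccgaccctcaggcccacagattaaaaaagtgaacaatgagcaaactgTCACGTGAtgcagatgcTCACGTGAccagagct
Ctsd (chr7:142387808-142387967, minus strand): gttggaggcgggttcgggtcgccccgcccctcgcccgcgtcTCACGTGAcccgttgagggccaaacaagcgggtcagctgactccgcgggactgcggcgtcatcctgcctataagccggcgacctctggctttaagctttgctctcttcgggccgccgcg
Atp6v0d1 (chr8:105566045-105566204, minus strand): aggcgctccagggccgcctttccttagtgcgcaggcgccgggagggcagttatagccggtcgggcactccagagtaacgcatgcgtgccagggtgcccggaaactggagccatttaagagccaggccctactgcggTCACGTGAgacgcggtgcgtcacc
Atp6v1a (chr16:44139240-44139399, minus strand): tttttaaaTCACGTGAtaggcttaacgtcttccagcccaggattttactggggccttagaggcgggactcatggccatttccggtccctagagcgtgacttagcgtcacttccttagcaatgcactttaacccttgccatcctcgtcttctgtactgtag
Clcn7 (chr17:25133251-25133410, plus strand): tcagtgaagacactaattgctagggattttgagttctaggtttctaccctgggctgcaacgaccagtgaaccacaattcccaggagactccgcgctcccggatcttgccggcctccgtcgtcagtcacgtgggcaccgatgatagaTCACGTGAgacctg
Atp6v0e (chr17:26676256-26676415, plus strand): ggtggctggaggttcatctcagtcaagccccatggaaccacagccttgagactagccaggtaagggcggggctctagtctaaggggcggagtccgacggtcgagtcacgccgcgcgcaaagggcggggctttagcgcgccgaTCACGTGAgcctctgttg
Lamp1 (chr8:13159021-13159180, plus strand): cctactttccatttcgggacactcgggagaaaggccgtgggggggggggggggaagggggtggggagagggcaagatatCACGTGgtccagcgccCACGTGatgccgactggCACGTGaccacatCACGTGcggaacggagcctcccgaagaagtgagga
*Atp6v0b* and *Ctsl* held CACGTG alone. Of the genes shown, *Ctsa*, *Ctsd*, *Atp6v0d1*, *Atp6v1a*, *Atp6v0e* and *Lamp1* were called higher in saline-treated than in wild-type bone, and *Clcn7* was not. *Ctsl* was called higher and *Atp6v0b* was not. In that comparison 23 of all 34 tested members (67.6%) and 27.5% of all genes were called higher, and a relation of the letters to these calls was not tested. A match of letters is a description of the window, and whether a factor bound there was not measured.

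In wild-type bone several cathepsins, *Lamp1* and *Hexa* had the highest levels per length. *Ctsb*, a cysteine protease, had the highest mean, 20.9 ± 3.08 scaled TPM (SD, n = 12), followed by *Lamp1*, *Hexa*, *Ctsz* and *Ctsd* between 19.2 and 17.7, and the ranges of these 5 genes over libraries overlapped. Among pump genes the order began with *Atp6v1g1* at 14.3 ± 1.52, *Atp6v0b* at 12.7 ± 0.969 and *Tcirg1* at 12.2 ± 1.01, whose ranges also overlapped. At the other end were *Atp6v1h*, *Atp6v1g2* and *Atp6v0e2*, all under 1 scaled TPM. Their median reads over all 36 libraries were 2567.5, 283 and 580. *Atp6v1c2* lay between 0.0889 and 0.326 scaled TPM in wild-type, with 6 to 192 reads a library over all groups. *Atp6v1b1*, the B subunit of kidney and inner ear, had 0 to 8 reads a library and 0 reads in 10 libraries. *Ctsk*, the collagen-digesting protease of osteoclasts and no member here, had 55.3 ± 15.97 scaled TPM in wild-type bone.

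Saline-treated LMNA G/G bone had more RNA of most members than wild-type bone. Of the 34 tested members, 23 were higher and 4 lower (limma with Benjamini-Hochberg adjustment), where 27.5% of all genes tested were higher and 24.9% lower. The median log2 difference of the members was 0.33, and that of all genes was 0.015. Of the 20 tested pump subunits and accessory proteins 15 were higher and 4 lower, of the 8 cathepsins 5 were higher and 0 lower, and of the 4 membrane proteins and glycosidases 3 were higher and 0 lower. *Clcn7* and *Ostm1* were not called. The libraries of the groups did not overlap for 4 members that lay above wild-type, *Atp6v1f*, *Atp6v1g1*, *Atp6v1h* and *Lamp2*, where 3.01% of all genes did so, and for 1 that lay below, *Atp6v1g2*, where 3.65% did so. With TPM as deposited, whose median over all genes was -0.13, 4 members were higher and 3 lower, beside 6.42% and 23.1% of all genes.

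Between ABE-treated and wild-type bone the members were called higher about as often as all genes. Here 13 of 34 members (38.2%) were higher and 8 (23.5%) lower (limma with Benjamini-Hochberg adjustment), against 34.6% and 35.6% of all genes, with a median of 0.08 for members and -0.02 for all genes. Only *Atp6v1g1* lay above wild-type in every library, as 4.09% of all genes did, and only *Atp6v1g2* below, as 4.55% did. With TPM as deposited, 1 member was higher and 20 lower (58.8%), beside 9.11% and 58.7% of all genes and a median of -0.42 for all genes, so that the share of members lower was that of all genes. The comparisons of saline-treated and ABE-treated mice with wild-type share the 12 wild-type libraries.

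Against saline-treated bone, ABE-treated bone had less RNA of most members. Of 34 members 22 were lower and 2 higher (limma with Benjamini-Hochberg adjustment), against 25.1% and 22.9% of all genes, and the median log2 difference was -0.21 for members and -0.02 for all genes. The groups overlapped for every member, and among all genes 0.0186% lay above and 0.0124% below without overlap. With TPM as deposited, 30 were lower and 1 higher, beside 40.8% and 3.35% of all genes and a median of -0.27 for all genes. The lower members were 7 of 9 V0 genes, 5 of 9 tested V1 genes, both accessory proteins, *Ostm1*, 5 of 8 cathepsins, and *Hexa* and *Gusb*.

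Skeletal muscle markers also differed between these groups. All 17 were above 0 in every library, their summed level ranged from 392.3 to 9167 scaled TPM (median 2507) in saline-treated and from 1287 to 15268 (median 7372) in ABE-treated mice, and 15 of 17 were higher in ABE-treated mice. Of all genes, 22.9% were higher in that comparison. Fitted with the mean of the muscle list as a covariate, limma called 0 of 34 members in ABE-treated against saline-treated bone (12 at an unadjusted p under 0.05, all lower), and of all 16123 genes 249 were higher and 101 lower. The median of the members was then -0.14. With the means of the neutrophil, B cell, erythroid and macrophage lists as covariates 0 members were called (5 unadjusted, 1 higher and 4 lower) and 13 and 9 genes in all, with a member median of -0.09. With the osteoclast list as a covariate 0 members were called (3 unadjusted, 1 higher and 2 lower) and 194 and 141 genes in all, with a member median of -0.03.

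**Figure D1:**
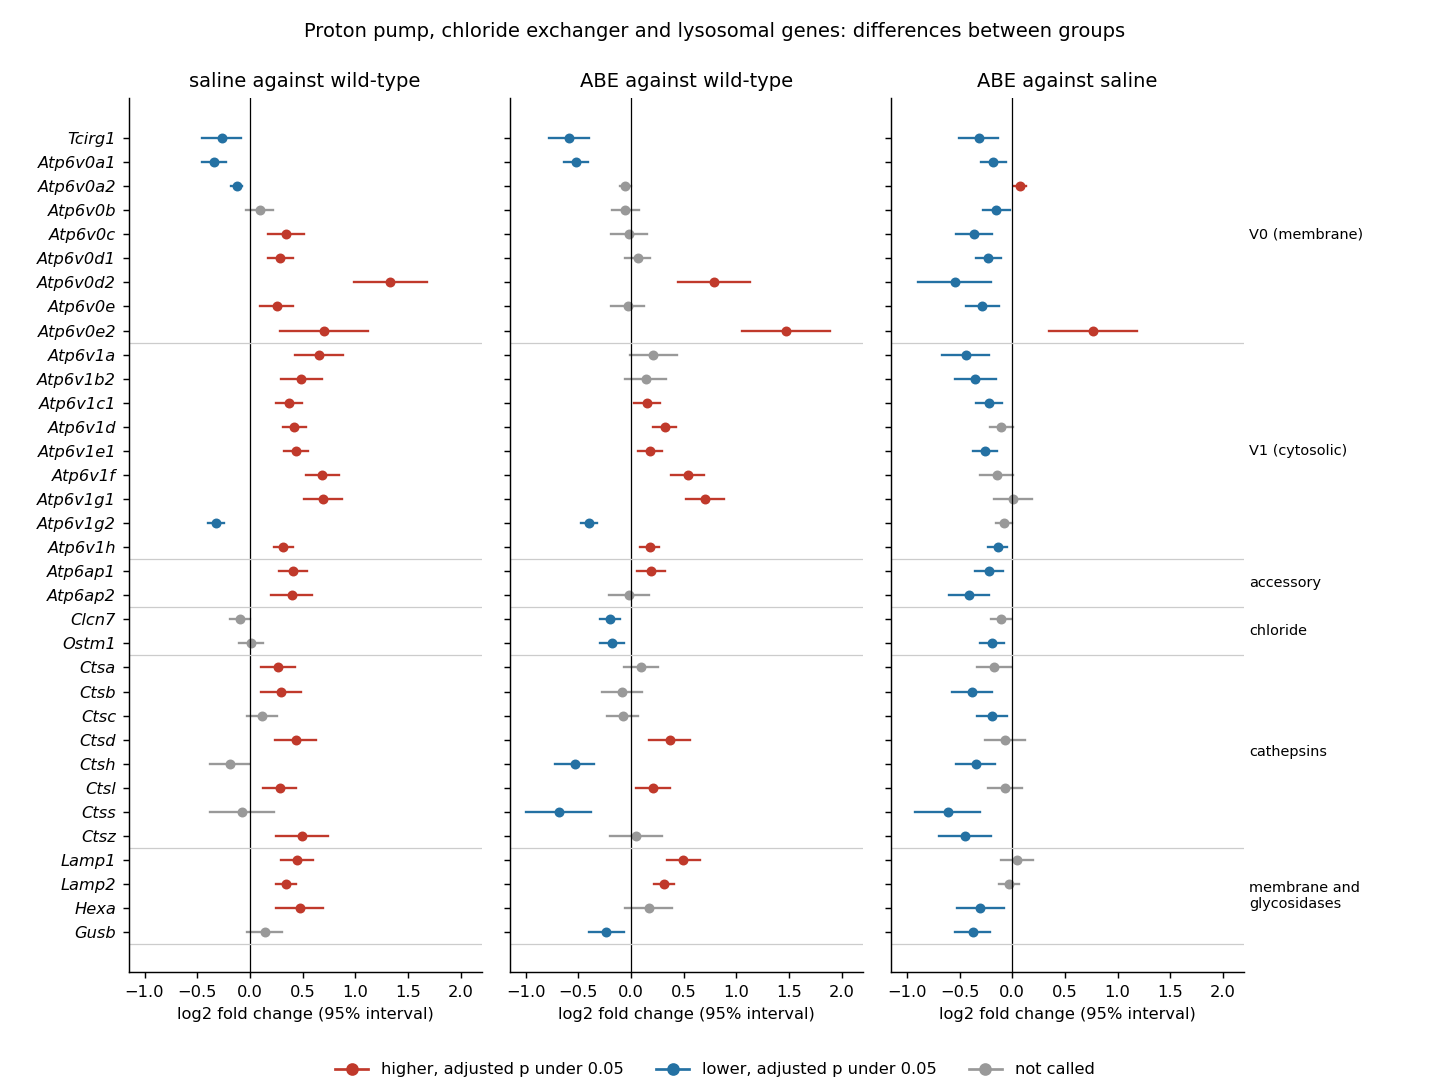
Log2 fold change of each of the 34 tested members (rows, grouped by role) in the 3 comparisons (panels), with points for the estimate and bars for its 95% interval from limma over 36 libraries. Most members lie to the right of 0 in saline-treated against wild-type mice (23 called higher) and to the left in ABE-treated against saline-treated mice (22 called lower), where *Ctss* and *Atp6v0d2* are farthest left and *Atp6v0e2* farthest right.

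The 34 members showed 11 combinations of calls over the 3 comparisons. Combinations were not counted for all genes, so the counts below have no background to be judged against. The same saline-treated libraries enter saline-treated against wild-type and ABE-treated against saline-treated bone with opposite sign. Calls that are higher in the first and lower in the second are therefore not independent. The most frequent combination held 9 members. *Atp6v0c*, *Atp6v0d1*, *Atp6v0e*, *Atp6v1a*, *Atp6v1b2*, *Atp6ap2*, *Ctsb*, *Ctsz* and *Hexa* were higher in saline-treated than in wild-type bone, lower in ABE-treated than in saline-treated bone, and not called between ABE-treated and wild-type bone. Another 5, *Atp6v0d2*, *Atp6v1c1*, *Atp6v1e1*, *Atp6v1h* and *Atp6ap1*, were higher in saline-treated bone and lower with ABE, yet still higher than wild-type. A group of 7, *Atp6v1d*, *Atp6v1f*, *Atp6v1g1*, *Ctsd*, *Ctsl*, *Lamp1* and *Lamp2*, was higher than wild-type with either treatment and not called between the treatments. *Ostm1*, *Ctsh*, *Ctss* and *Gusb* were not called between saline-treated and wild-type bone and were lower with ABE in both comparisons. *Tcirg1* and *Atp6v0a1* were lower in all 3, and *Atp6v0b* and *Ctsc* were called only between ABE and saline. *Atp6v0e2*, *Ctsa*, *Atp6v0a2*, *Atp6v1g2* and *Clcn7* each had a combination of their own.

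The a subunit of V0 anchors the pump and directs it to a membrane, and all 3 of its forms measured here were lower in saline-treated than in wild-type bone. *Tcirg1* (ENSMUSG00000001750.16, chromosome 19 from 3896050 to 3907133, minus strand, GRCm38), the a3 form of the osteoclast, ranged over 10.6 to 13.5 (median 12.2) scaled TPM in the wild-type libraries, 7.57 to 12.7 (median 10.1) with saline and 5.53 to 11.5 (median 8.51) with ABE. The median was highest in wild-type and lowest in ABE-treated mice, and all 3 ranges overlapped. Its share of the summed a subunit RNA was 56.0% ± 2.90 in wild-type libraries, 56.4% ± 3.96 with saline and 52.3% ± 5.66 with ABE (SD, n = 12). The log2 difference was -0.27 (SE 0.09, adjusted p = 0.0156) between saline and wild-type, -0.59 (SE 0.09, adjusted p = 1.42e-06) between ABE and wild-type and -0.32 (SE 0.09, adjusted p = 0.00605) between ABE and saline (limma). *Atp6v0a1*, the a1 form, was also lower in all 3, at -0.34, -0.52 and -0.18 on the log2 scale. *Atp6v0a2* was lower in saline-treated than in wild-type mice, at -0.13, and higher in ABE-treated than in saline-treated mice, at 0.07, a difference that was not called without the 3 libraries whose titles hold WT, at 0.07 (adjusted p = 0.0517) from limma.

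The d subunit joins the stalk to the ring, and its osteoclast form showed the largest rise of any member in saline-treated bone. *Atp6v0d2* (ENSMUSG00000028238.6, chromosome 4 from 19876841 to 19922605, minus strand, GRCm38), which is also needed for osteoclast precursors to fuse, ranged over 1.28 to 3.33 (median 1.75) scaled TPM in the wild-type libraries, 2.24 to 9.58 (median 5.66) with saline and 1.99 to 6.76 (median 3.59) with ABE. The lowest saline-treated mouse lay within the wild-type range, and ABE-treated mice overlapped both groups. Saline against wild-type gave 1.33 (SE 0.17, adjusted p = 8.82e-08), ABE against wild-type 0.79 (SE 0.17, adjusted p = 0.000119) and ABE against saline -0.55 (SE 0.17, adjusted p = 0.00928) on the log2 scale (limma). *Atp6v0d1*, the form found in most cells, was at 0.29 and -0.23 in saline-treated against wild-type and ABE-treated against saline-treated mice. *Atp6v0d2* made up 20.3% ± 4.74 of the summed d subunit RNA (SD, n = 12) in wild-type libraries, 37.4% ± 7.58 with saline and 31.6% ± 6.20 with ABE. This is a share within a library and does not depend on how libraries were scaled.

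The e subunit is a small protein of the V0 membrane part, and its less common form was the only member called higher in all 3 comparisons. *Atp6v0e2* (ENSMUSG00000039347.7, chromosome 6 from 48537615 to 48541801, plus strand, GRCm38) ranged over 0.167 to 1.10 (median 0.428) scaled TPM in the wild-type libraries, 0.406 to 2.41 (median 1.002) with saline and 0.715 to 5.26 (median 2.29) with ABE, from 117 to 2109 reads a library. The groups overlapped, and the highest value was that of ABE replicate 1, without which the ABE-treated against saline-treated difference was 0.66 (adjusted p = 0.00884) from limma. On the log2 scale, saline differed from wild-type by 0.70 (SE 0.21, adjusted p = 0.00490), ABE from wild-type by 1.47 (SE 0.21, adjusted p = 2.21e-07) and ABE from saline by 0.77 (SE 0.21, adjusted p = 0.00372) (limma). Its share of e subunit RNA was 13.0% ± 6.47 in wild-type libraries, 22.3% ± 10.7 with saline and 41.4% ± 14.9 with ABE (SD, n = 12). *Atp6v0e*, the common form, was at 0.25 in saline-treated against wild-type bone and at -0.28 with ABE against saline, both called. With the muscle list as a covariate the ABE-treated against saline-treated difference of *Atp6v0e2* was 0.13 (adjusted p = 0.520) from limma.

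The ring of V0 is built from proteolipids. *Atp6v0c*, the c subunit, had means of 5.76 ± 0.515, 7.52 ± 1.40 and 5.72 ± 1.03 scaled TPM (SD, n = 12) in the wild-type, saline and ABE groups, and log2 differences of 0.34 (SE 0.08, adjusted p = 0.00102) and -0.36 (SE 0.08, adjusted p = 0.00149) in saline-treated against wild-type and ABE-treated against saline-treated mice (limma). Reads of *Atp6v0c* may be shared with its processed copies *Atp6v0c-ps2*, at a mean of 3.52 TPM, and *Atp6v0c-ps1*, at 0.509 TPM. *Atp6v0b*, the c″ subunit, was called only between ABE-treated and saline-treated mice, at -0.15 (SE 0.06, adjusted p = 0.0469) from limma, and without ABE replicate 1 it was at -0.16 (adjusted p = 0.0508).

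**Figure D2:**
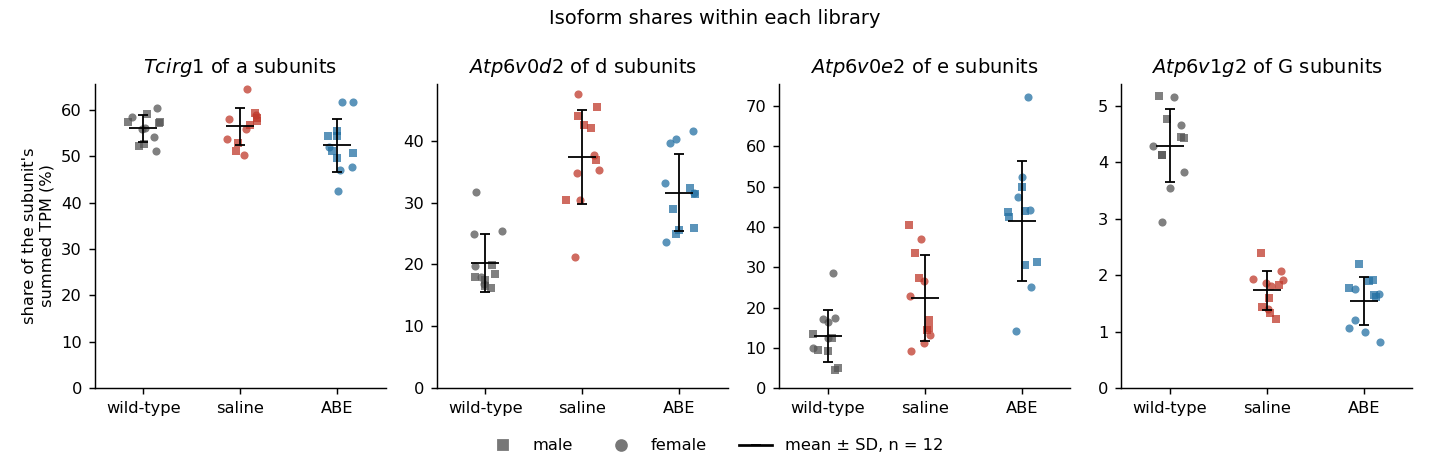
Share of *Tcirg1*, *Atp6v0d2*, *Atp6v0e2* and *Atp6v1g2* in the summed TPM of all members for the same subunit (y axis, percent), with a point for each library (squares males, circles females) and the mean ± SD of 12 libraries a group. The share of *Atp6v0d2* rises from a mean of 20.3% in wild-type to 37.4% in saline-treated mice, that of *Atp6v0e2* is highest in ABE-treated mice at 41.4%, and that of *Atp6v1g2* lies below every wild-type library in both other groups.

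All 9 tested V1 genes were called in saline-treated against wild-type bone, 8 higher and 1 lower. *Atp6v1g1* (ENSMUSG00000039105.6, chromosome 4 from 63544772 to 63550750, plus strand, GRCm38), a G subunit of the outer stalk, ranged over 12.3 to 17.1 (median 14.1) scaled TPM in the wild-type libraries, 20.2 to 30.6 (median 22.6) with saline and 17.2 to 34.7 (median 22.2) with ABE. Every saline-treated and ABE-treated library lay above every wild-type library. The log2 difference from wild-type was 0.69 (SE 0.09, adjusted p = 1.03e-07) in saline-treated and 0.70 (SE 0.09, adjusted p = 4.50e-08) in ABE-treated mice (limma), and between the treatments it was 0.01 (95% interval -0.17 to 0.19). *Atp6v1g2*, the G form best known from neurons, went the other way, with 0.515 to 0.763 (median 0.635) scaled TPM in wild-type mice, 0.339 to 0.495 (median 0.401) with saline and 0.255 to 0.453 (median 0.368) with ABE. Its share of G subunit RNA was 4.29% ± 0.646 in wild-type libraries, 1.73% ± 0.342 with saline and 1.55% ± 0.425 with ABE (SD, n = 12), with no overlap between wild-type and either other group. Its exons share 144 bp with *Nfkbil1* on the opposite strand.

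*Atp6v1f* (ENSMUSG00000004285.12, chromosome 6 from 29467718 to 29470512, plus strand, GRCm38), the F subunit of the central rotor, ranged over 5.52 to 8.31 (median 6.86) scaled TPM in the wild-type libraries, 9.15 to 13.7 (median 11.4) with saline and 7.85 to 12.3 (median 10.3) with ABE. Saline-treated libraries all lay above wild-type, and ABE-treated libraries overlapped both groups. The log2 difference from wild-type was 0.69 (SE 0.08, adjusted p = 8.50e-09) in saline-treated and 0.54 (SE 0.08, adjusted p = 3.03e-07) in ABE-treated mice (limma), and ABE-treated against saline-treated mice were at -0.15 (SE 0.08, adjusted p = 0.111), which was not called. *Atp6v1d*, the other rotor subunit, was at 0.42, 0.32 and -0.10 in the same order, and the last value was not called.

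*Atp6v1a* (ENSMUSG00000052459.13, chromosome 16 from 44085402 to 44139705, minus strand, GRCm38), the A subunit that hydrolyses ATP, ranged over 3.002 to 4.75 (median 3.81) scaled TPM in the wild-type libraries, 3.71 to 8.64 (median 6.37) with saline and 2.86 to 7.31 (median 4.12) with ABE. Most saline-treated mice lay above the wild-type range and most ABE-treated mice within it. The log2 difference was 0.66 (SE 0.11, adjusted p = 1.07e-05) between saline and wild-type, 0.21 (SE 0.11, adjusted p = 0.0883) between ABE and wild-type and -0.44 (SE 0.11, adjusted p = 0.00250) between ABE and saline (limma). Without ABE replicate 1 the middle value became 0.26 (adjusted p = 0.0308) and was called. Its partner in the ATP-hydrolysing head, *Atp6v1b2*, was at 0.49, 0.14 and -0.35 in the same order, and the middle value was not called. The stalk and control subunits *Atp6v1c1*, *Atp6v1e1* and *Atp6v1h* were 0.37, 0.44 and 0.32 higher in saline-treated than in wild-type bone, and their ABE-treated against saline-treated differences were -0.22, -0.26 and -0.14, all called.

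The accessory proteins help to assemble and steer the pump. *Atp6ap1* had means of 9.85 ± 0.633, 13.3 ± 1.83 and 11.3 ± 1.37 scaled TPM (SD, n = 12) in the wild-type, saline and ABE groups, and *Atp6ap2*, also known as the prorenin receptor, had 4.83 ± 0.492, 6.57 ± 1.06 and 4.86 ± 1.20. Both were higher in saline-treated than in wild-type bone, by 0.41 and 0.40, and lower with ABE than with saline, at -0.22 and -0.41 on the log2 scale. Against wild-type, ABE-treated mice were higher for *Atp6ap1* at 0.19 (SE 0.07, adjusted p = 0.0120) and at -0.02 (SE 0.09, adjusted p = 0.880) for *Atp6ap2* (limma).

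**Figure D3:**
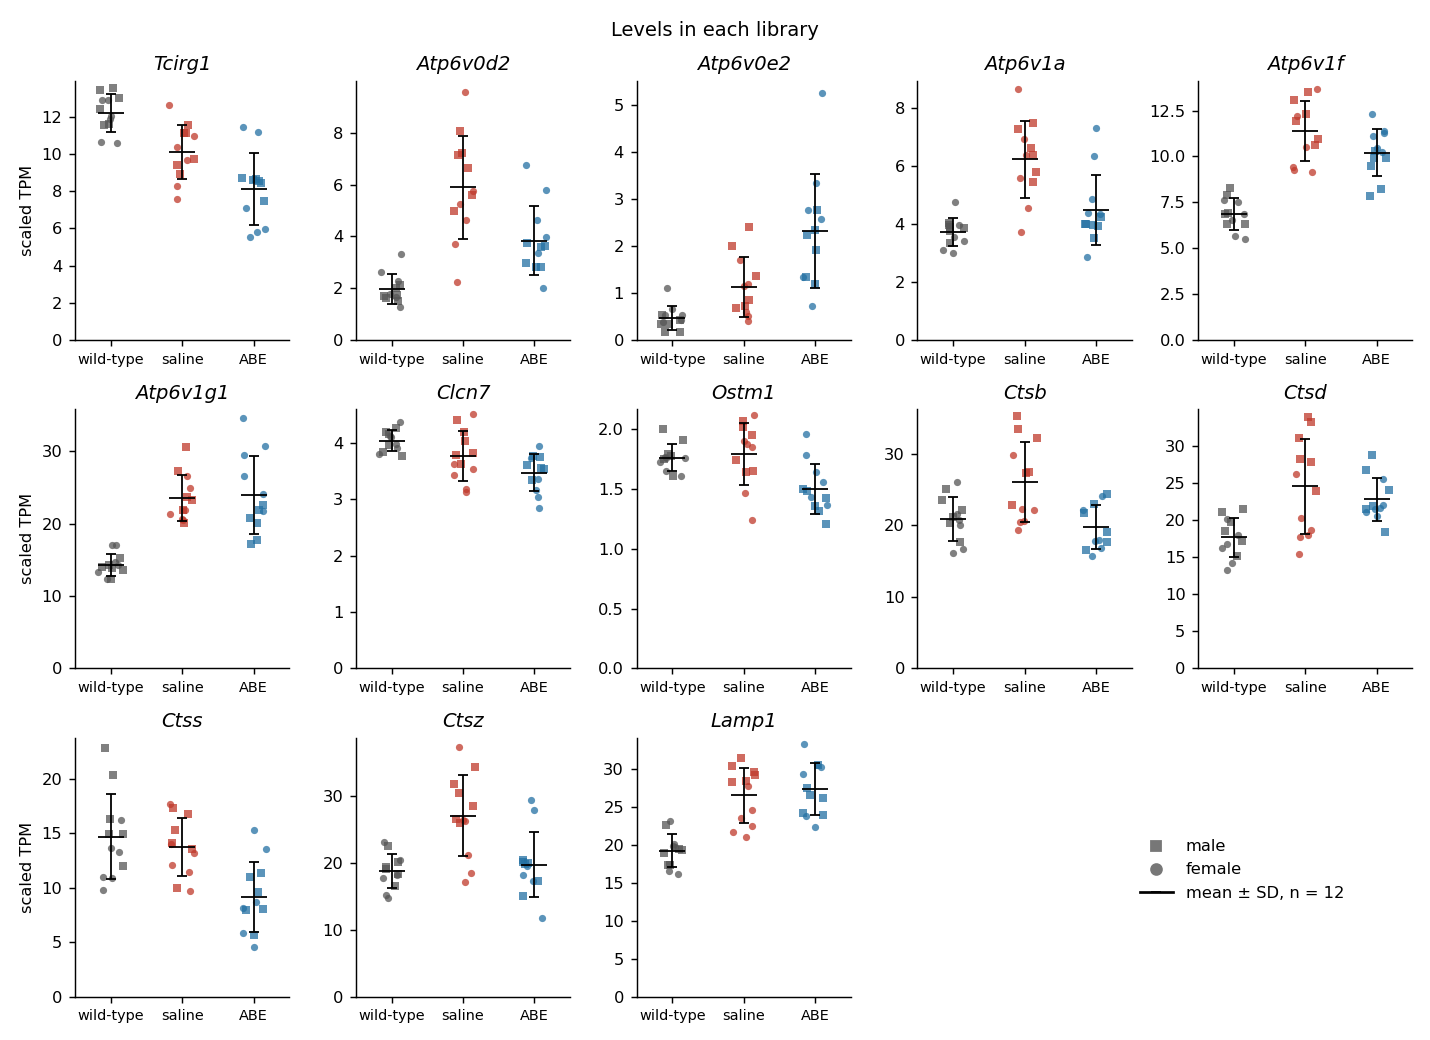
Scaled TPM (y axis, from 0) of 13 members in each library of the 3 groups, squares for males and circles for females, with the mean ± SD of 12 libraries. *Atp6v1g1* lies above every wild-type library in both LMNA G/G groups, *Atp6v0d2* is highest in saline-treated mice (median 5.66), *Atp6v0e2* in ABE-treated mice (median 2.29), and *Ctss* is lowest in ABE-treated mice (median 8.43).

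Neither gene of the chloride exchanger was called between saline-treated and wild-type bone. *Clcn7* (ENSMUSG00000036636.10, chromosome 17 from 25133391 to 25162104, plus strand, GRCm38), which trades chloride for protons, ranged over 3.77 to 4.36 (median 4.04) scaled TPM in the wild-type libraries, 3.12 to 4.51 (median 3.70) with saline and 2.84 to 3.94 (median 3.54) with ABE. The 3 ranges overlapped. Saline against wild-type gave -0.09 (SE 0.05, adjusted p = 0.0890), ABE against wild-type -0.20 (SE 0.05, adjusted p = 0.000336) and ABE against saline -0.10 (SE 0.05, adjusted p = 0.0625) on the log2 scale (limma), and only that of ABE-treated against wild-type mice was called. The 95% interval of the saline-treated difference was -0.19 to 0.00. Without the 3 libraries whose titles hold WT the saline-treated difference was called lower, at -0.11 (adjusted p = 0.0432) from limma.

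*Ostm1* (ENSMUSG00000038280.12, chromosome 10 from 42583822 to 42702459, plus strand, GRCm38), without which *Clcn7* protein is unstable, ranged over 1.61 to 2.01 (median 1.76) scaled TPM in the wild-type libraries, 1.24 to 2.12 (median 1.86) with saline and 1.20 to 1.96 (median 1.46) with ABE. Wild-type and saline-treated ranges overlapped through most of their length, and ABE-treated mice lay lower with overlap. On the log2 scale, saline differed from wild-type by 0.01 (SE 0.06, adjusted p = 0.854), ABE from wild-type by -0.18 (SE 0.06, adjusted p = 0.00495) and ABE from saline by -0.19 (SE 0.06, adjusted p = 0.00598) (limma).

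Of the 8 cathepsins, 5 were higher in saline-treated than in wild-type bone (*Ctsa*, *Ctsb*, *Ctsd*, *Ctsl* and *Ctsz*), and 5 were lower with ABE than with saline (*Ctsb*, *Ctsc*, *Ctsh*, *Ctss* and *Ctsz*). *Ctsb* (ENSMUSG00000021939.8, chromosome 14 from 63122462 to 63145923, plus strand, GRCm38), a cysteine protease of most lysosomes, ranged over 16.2 to 26.1 (median 20.9) scaled TPM in the wild-type libraries, 19.4 to 35.2 (median 25.0) with saline and 15.7 to 24.4 (median 18.4) with ABE. The groups overlapped, with the highest mice among the saline-treated. The log2 difference was 0.30 (SE 0.09, adjusted p = 0.00886) between saline and wild-type, -0.08 (SE 0.09, adjusted p = 0.431) between ABE and wild-type and -0.38 (SE 0.09, adjusted p = 0.00227) between ABE and saline (limma). Exons of *Ctsb* share 774 bp (12.8%) with *Fdft1* on the opposite strand, and those of *Ctsa* share 495 bp (10.5%) with *Pltp*. Libraries were made with a stranded kit, and whether counting used the strand is not given in the sources used here.

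*Ctsz* (ENSMUSG00000016256.10, chromosome 2 from 174427493 to 174439039, minus strand, GRCm38), a cysteine carboxypeptidase, ranged over 14.7 to 23.1 (median 18.7) scaled TPM in the wild-type libraries, 17.1 to 37.3 (median 26.5) with saline and 11.7 to 29.4 (median 19.7) with ABE. It was called in the same comparisons as *Ctsb*, and the groups overlapped. Saline against wild-type gave 0.49 (SE 0.12, adjusted p = 0.00114), ABE against wild-type 0.04 (SE 0.12, adjusted p = 0.762) and ABE against saline -0.45 (SE 0.12, adjusted p = 0.00418) on the log2 scale (limma).

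*Ctsd* (ENSMUSG00000007891.16, chromosome 7 from 142375911 to 142388038, minus strand, GRCm38), the main aspartic protease of lysosomes, ranged over 13.3 to 21.5 (median 17.6) scaled TPM in the wild-type libraries, 15.5 to 33.9 (median 25.1) with saline and 18.5 to 28.8 (median 21.8) with ABE. Both LMNA G/G groups lay above wild-type in their medians, and all ranges overlapped. On the log2 scale, saline differed from wild-type by 0.43 (SE 0.09, adjusted p = 0.000292), ABE from wild-type by 0.37 (SE 0.09, adjusted p = 0.000972) and ABE from saline by -0.07 (SE 0.09, adjusted p = 0.572) (limma), the last not called. *Ctsd* shares 808 bp (34.4% of its exons) with *Gm49369* on the same strand, a gene listed at 0 TPM. *Ctsl*, a cysteine protease, was 0.28 and 0.21 higher than wild-type with saline and ABE, and its exons share 395 bp with *Gm49230*, a pseudogene on the same strand also listed at 0. *Ctsa*, the protective protein that shields other lysosomal enzymes, was 0.27 higher with saline and not called elsewhere.

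*Ctss* (ENSMUSG00000038642.10, chromosome 3 from 95526786 to 95556403, plus strand, GRCm38), the protease with which antigen-presenting cells cut the invariant chain, ranged over 9.75 to 22.8 (median 14.3) scaled TPM in the wild-type libraries, 9.72 to 17.6 (median 13.8) with saline and 4.58 to 15.3 (median 8.43) with ABE. Wild-type and saline-treated mice overlapped, with the highest values in wild-type mice, and ABE-treated mice lay lower with overlap. The log2 difference was -0.07 (SE 0.15, adjusted p = 0.701) between saline and wild-type, -0.69 (SE 0.15, adjusted p = 0.000159) between ABE and wild-type and -0.61 (SE 0.15, adjusted p = 0.00227) between ABE and saline (limma). *Ctsh*, an aminopeptidase of similar cells, was at -0.19 (SE 0.09, adjusted p = 0.0781) with saline against wild-type (limma), which was called without ABE replicate 1 (adjusted p = 0.0459), and at -0.54 and -0.35 with ABE against wild-type and saline. *Ctsc*, which activates the serine proteases of neutrophils, was called only with ABE against saline, at -0.19 (SE 0.07, adjusted p = 0.0258) from limma. The macrophage list, the 16 genes chosen to mark macrophages, was mostly lower with ABE. Of 15 tested, 1 was higher and 4 lower in saline-treated against wild-type, 0 higher and 13 lower in ABE-treated against wild-type, and 0 higher and 11 lower in ABE-treated against saline-treated mice. In percent of those tested these were 6.67 and 26.7, 0 and 86.7, and 0 and 73.3. The corresponding percent of all genes were 27.5 and 24.9, 34.6 and 35.6, and 22.9 and 25.1. The summed level of the macrophage list ranged from 191 to 379 scaled TPM (median 259) in wild-type mice, from 166 to 411 (median 287) with saline and from 75.8 to 358 (median 207) with ABE, and no marker was at 0. With the marrow cell lists as covariates *Ctss* was -0.15 (adjusted p = 0.483) in ABE-treated against saline-treated mice from limma.

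*Lamp1* (ENSMUSG00000031447.7, chromosome 8 from 13159161 to 13175338, plus strand, GRCm38), a glycoprotein that lines the lysosomal membrane, ranged over 16.2 to 23.1 (median 19.4) scaled TPM in the wild-type libraries, 21.01 to 31.4 (median 27.9) with saline and 22.3 to 33.2 (median 27.0) with ABE. Both LMNA G/G groups overlapped wild-type at their lower ends and overlapped each other. Saline against wild-type gave 0.45 (SE 0.08, adjusted p = 9.16e-06), ABE against wild-type 0.50 (SE 0.08, adjusted p = 8.23e-07) and ABE against saline 0.05 (SE 0.08, adjusted p = 0.629) on the log2 scale (limma). *Lamp2*, its relative that serves chaperone-mediated autophagy, was 0.34 and 0.31 higher than wild-type, and its saline-treated libraries all lay above the wild-type ones. *Hexa*, which cuts gangliosides, had means of 18.8 ± 2.07, 26.7 ± 5.51 and 21.6 ± 4.93 scaled TPM (SD, n = 12) and was 0.47 higher with saline than in wild-type mice. With ABE against saline it was at -0.30 (SE 0.11, adjusted p = 0.0222) from limma, and without ABE replicate 1 at -0.26 (adjusted p = 0.0501). *Gusb*, which cuts glycosaminoglycans, was called lower with ABE, at -0.24 against wild-type and -0.37 against saline.

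Osteoclast markers also differed between the groups. Of 18 tested genes of a list of 19, which holds no member, 13 were higher and 2 lower in saline-treated against wild-type, 7 higher and 4 lower in ABE-treated against wild-type, and 0 higher and 14 lower in ABE-treated against saline-treated mice. In percent of those tested these were 72.2 and 11.1, 38.9 and 22.2, and 0 and 77.8. The corresponding percent of all genes were 27.5 and 24.9, 34.6 and 35.6, and 22.9 and 25.1. The summed level of the osteoclast list ranged from 207 to 340 scaled TPM (median 245) in wild-type mice, from 247 to 716 (median 521) with saline and from 155 to 598 (median 284) with ABE, and no marker was at 0. *Ctsk* ranged over 36.9 to 89.8 (median 51.0) scaled TPM in the wild-type libraries, 62.1 to 282 (median 193) with saline and 52.7 to 223 (median 94.4) with ABE, with log2 differences of 1.64 (SE 0.23, adjusted p = 4.87e-07), 0.86 (SE 0.23, adjusted p = 0.00133) and -0.78 (SE 0.23, adjusted p = 0.00650) in saline-treated against wild-type, ABE-treated against wild-type and ABE-treated against saline-treated mice (limma). *Acp5*, the tartrate-resistant acid phosphatase, had differences of 1.21, 0.66 and -0.55, all called. *Car2*, the carbonic anhydrase that supplies the protons, was not called with saline at 0.31 (SE 0.25, adjusted p = 0.307) (limma) and was lower with ABE, at -0.68 against wild-type and -0.997 against saline.

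With the mean of the osteoclast list as a covariate, saline-treated against wild-type bone gave 13 members higher and 9 lower, with a median of 0.04, while 28.3% of all genes were higher and 24.8% lower. In that fit *Atp6v0d2* was still higher, at 0.60 (adjusted p = 2.24e-06), as were *Atp6v1g1*, at 0.71 (adjusted p = 9.58e-06), *Atp6v1f*, at 0.51 (adjusted p = 1.76e-05), and *Lamp1*, at 0.48 (adjusted p = 0.000163) from limma. *Hexa* was at 0.00 (adjusted p = 0.997), *Ctsz* at -0.01 (adjusted p = 0.893) and *Ctsb* at 0.04 (adjusted p = 0.744) (limma). *Tcirg1* was lower, at -0.62 (adjusted p = 3.32e-08), and *Clcn7* and *Ostm1* were called lower, at -0.25 (adjusted p = 9.09e-06) and -0.17 (adjusted p = 0.00838) (limma).

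Among mice of the same group and sex, most members varied with the osteoclast markers. Pearson's r was taken over 36 libraries between each of 34 members and the mean of each list, after group and sex were removed, with permutation p-values of 100000 resamples adjusted over the 68 relations. The points share the library and its scaling, and the median r of all genes was 0.02 with the osteoclast list and 0.05 with the macrophage list. With the osteoclast list 24 members were positive and 1 negative at an adjusted p under 0.05, with a median r over all 34 of 0.61 (0.49 without the 2 libraries farthest from the median of the list). The smallest r called over both lists was 0.36 in size (*Atp6v1g1*, macrophage list), and with the osteoclast list alone it was 0.44 (*Ctsc*). With the osteoclast list, 15.8% of all genes reached 0.36 in the positive and 19.9% in the negative direction. With the macrophage list 23 were positive and 2 negative, with a median r of 0.58 (0.53 without 2 libraries), and 25.4% and 22.6% of all genes reached that size. Without ABE replicate 1, 26 were positive with each list, where 10.6% (osteoclast) and 19.3% (macrophage) of all genes reached the smallest r called. The highest with the osteoclast list were *Hexa* (r = 0.94, rho = 0.88), *Atp6v0d2* (r = 0.92, rho = 0.82), *Atp6v1a* (r = 0.91, rho = 0.77) and *Ctsz* (r = 0.90, rho = 0.78), all at an adjusted permutation p of 2.83e-05, the smallest that these permutations gave. Without the 2 farthest libraries, these r were 0.92, 0.89, 0.86 and 0.86. *Tcirg1*, which was lower and not higher in saline-treated bone, also varied with osteoclast markers within groups (r = 0.83, rho = 0.69, without the 2 libraries r = 0.78), as did *Clcn7* (r = 0.76, rho = 0.69, without them r = 0.69).

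Cathepsins had the highest correlations with the macrophage list. *Ctss* (r = 0.90, rho = 0.87), *Ctsb* (r = 0.85, rho = 0.84) and *Ctsc* (r = 0.84, rho = 0.84) came first, and without the 2 farthest libraries r was 0.85, 0.88 and 0.84. With the osteoclast list their r was 0.56, 0.60 and 0.44, and the difference between the lists was not tested. *Atp6v0e2* was negative with both lists, at r = -0.49 (rho = -0.31) for osteoclasts and r = -0.62 (rho = -0.54) for macrophages, and without the 2 farthest libraries at -0.35 and -0.54. *Lamp1* was near 0 with both, at -0.08 and -0.11. With TPM as deposited 33 members were positive with each list, where 54.6% and 56.7% of all genes reached the smallest r called and the median r of all genes was 0.68 and 0.69.

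**Figure D4:**
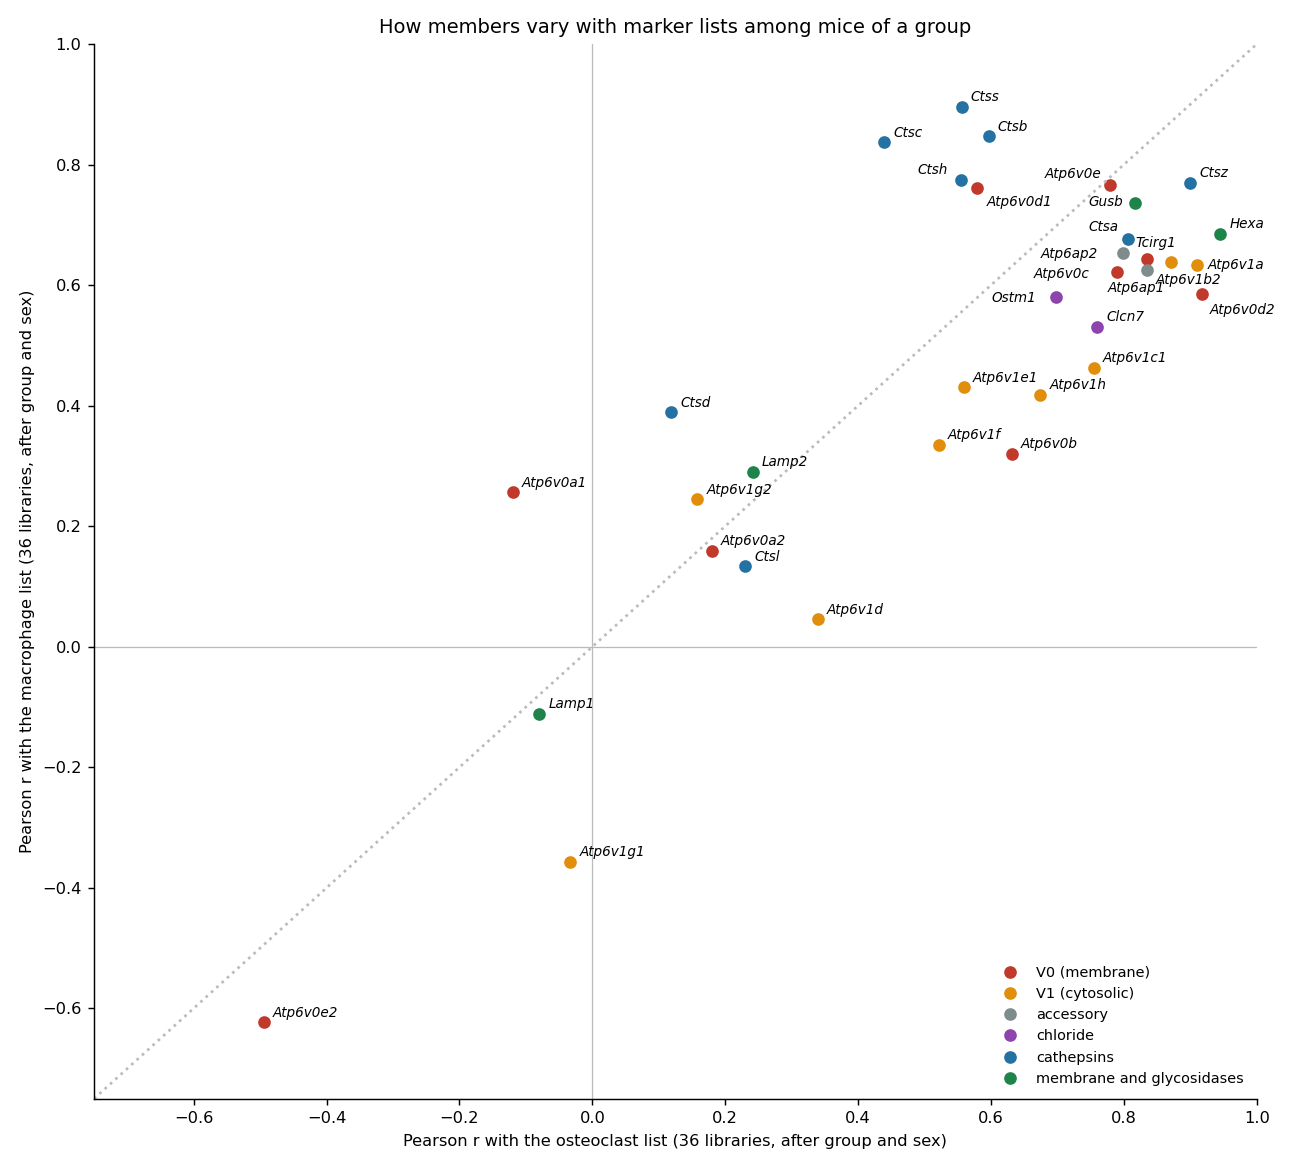
Pearson's r of each of the 34 tested members with the mean of the osteoclast list (x axis) and of the macrophage list (y axis) over 36 libraries after group and sex were removed, coloured by role, with a dotted line where both are equal. *Hexa*, *Atp6v0d2* and *Atp6v1a* lie farthest to the right (r of 0.94, 0.92 and 0.91), *Ctss*, *Ctsb* and *Ctsc* highest, and *Atp6v0e2* is negative on both axes.

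Males and females were compared as an interaction, which asks whether a difference between groups was larger in males. For saline-treated against wild-type bone 0 of 34 members were called (limma with Benjamini-Hochberg adjustment), where 1.58% of all genes were, and 4 members had an unadjusted p under 0.05, where 23.0% of all genes did. For ABE-treated against saline-treated bone 0 members were called, where 0.0558% of all genes were, and 15 of 34 members had an unadjusted p under 0.05, where 15.7% of all genes did. The limma-voom fit on recovered reads also called 0 in both. On scaled TPM the ABE-treated against saline-treated difference lay lower in males than in females in all but 5 members. The median gap was -0.27 for members and -0.0016 for all genes. With TPM as deposited the median gap was 0.26 for members and 0.43 for all genes. Limma then called 0 members, and 2 had an unadjusted p under 0.05, both with a gap above 0. Fitted alone on scaled TPM, the 6 males of each group gave 24 members lower and 0 higher with ABE against saline, where 10.5% and 9.88% of all genes were. The 6 females gave 1 lower (*Atp6v0a1*) and 2 higher (*Atp6v0a2* and *Atp6v0e2*), where 14.2% and 15.9% of all genes were, counts that are no test of a difference between the sexes.

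*Atp6v1d* and *Atp6v1g1* had the lowest p-values of the interaction. *Atp6v1d* ranged in males from 2.99 to 3.67 (median 3.36) scaled TPM with saline and from 2.42 to 2.995 (median 2.61) with ABE, and in females from 2.60 to 3.63 (median 3.06) with saline and from 3.16 to 3.45 (median 3.28) with ABE. Its ABE-treated against saline-treated difference was -0.28 in males and 0.07 in females, and the difference was -0.35 (95% interval -0.53 to -0.17, unadjusted p = 0.000377, adjusted p = 0.104) from limma. *Atp6v1g1* ranged in males from 20.2 to 30.6 (median 23.4) with saline and from 17.2 to 22.5 (median 20.5) with ABE, and in females from 20.5 to 26.5 (median 21.6) with saline and from 21.8 to 34.7 (median 28.0) with ABE. Its difference was -0.27 in males and 0.29 in females, and the difference was -0.56 (95% interval -0.87 to -0.25, unadjusted p = 0.000864, adjusted p = 0.117) from limma. Without the 3 libraries whose titles hold WT, both interactions were called lower, 2 of 34 members, where 2.31% of all genes were called lower and 1.64% higher. *Atp6v0d2* ranged in males from 4.97 to 8.07 (median 6.90) with saline and from 2.81 to 3.76 (median 3.27) with ABE, which do not overlap, and in females from 2.24 to 9.58 (median 4.95) and from 1.99 to 6.76 (median 4.29), which do. Its difference was -0.91 in males and -0.18 in females, and the difference was -0.73 (95% interval -1.38 to -0.07, unadjusted p = 0.0304, adjusted p = 0.269) from limma.

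**Figure D5:**
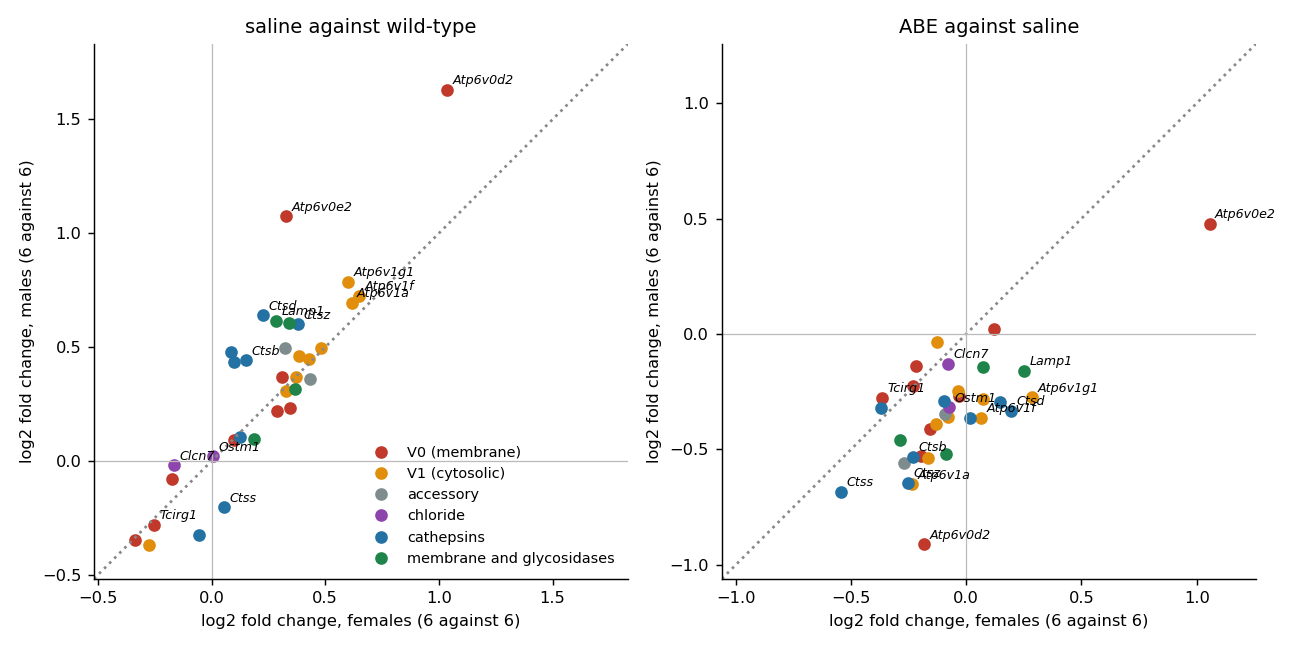
Log2 fold change of each of the 34 tested members in females (x axis) and in males (y axis), for saline-treated against wild-type mice (left) and ABE-treated against saline-treated mice (right), 6 against 6 mice in each sex, coloured by role, with a dotted line where both are equal. On the right all but 5 members lie below the line, with *Atp6v0d2* at -0.91 in males and -0.18 in females.

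Other genes of the same pathways were counted from lists that hold no member. Of all genes, 27.5% were higher and 24.9% lower in saline-treated against wild-type bone. The shares were 34.6% and 35.6% in ABE-treated against wild-type, and 22.9% and 25.1% in ABE-treated against saline-treated bone. The counts of this and the next paragraph stand beside these shares, and lists of 3 genes are too short to compare with them. The first list held further pump subunits, assembly factors and other genes set beside the pump, such as *Oxr1*. Of its 9 tested genes, 4 were higher and 0 lower in saline-treated against wild-type bone (limma with Benjamini-Hochberg adjustment). The counts were 2 and 3 in ABE-treated against wild-type, and 0 and 4 in ABE-treated against saline-treated bone. The largest called differences with saline were those of *Oxr1*, at 0.25, and *Vma21*, an assembly factor, at 0.23. Of 3 other CLC transporters of endosomes and lysosomes, 0 were higher and 1 lower with saline, *Clcn6*, whose libraries all lay below wild-type, at -0.26. With ABE these were 1 and 2 against wild-type, and 2 and 1 against saline. Of 6 other cathepsins, 3 were higher and 0 lower with saline against wild-type, led by *Ctsk* and *Ctsw*, a cathepsin of cytotoxic lymphocytes, at 0.54. With ABE these were 2 and 3 against wild-type, and 0 and 4 against saline.

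Among 31 tested further hydrolases and their activators, 15 were higher and 2 lower with saline against wild-type, 7 and 9 with ABE against wild-type, and 3 and 19 with ABE against saline. As shares of the list these were 48.4% and 6.45%, 22.6% and 29.0%, and 9.68% and 61.3%, beside the shares of all genes given above. *Gaa*, which breaks down glycogen, had 4.12 ± 1.09, 7.11 ± 2.07 and 10.03 ± 2.84 scaled TPM (SD, n = 12) in the wild-type, saline and ABE groups, and *Arsb*, a sulfatase, had 3.87 ± 0.584, 6.76 ± 1.95 and 4.84 ± 1.74. Of 12 tested other lysosomal membrane proteins 5 were higher and 3 lower with saline against wild-type, 4 and 4 with ABE against wild-type, and 2 and 5 with ABE against saline. *Cd68*, a macrophage and osteoclast protein that the macrophage list also holds, was 0.93 higher with saline, and *Cd63*, a tetraspanin, 0.65. Of the 3 tested MiT/TFE factors, the family that binds the letters shown above, 0 were higher and 1 lower with saline against wild-type, 2 and 1 with ABE against wild-type, and 2 and 1 with ABE against saline. The lower was *Tfe3*, at 1.33 ± 0.104, 1.14 ± 0.0887 and 1.02 ± 0.105 scaled TPM (SD, n = 12) in the wild-type, saline and ABE groups. Cystatins, which inhibit cysteine cathepsins, were higher in 2 and lower in 0 of 3 with saline against wild-type, 2 and 1 with ABE against wild-type, and 0 and 2 with ABE against saline. *Cst3* had 44.5 ± 8.16, 83.3 ± 28.3 and 84.3 ± 21.1 scaled TPM, and *Cstb*, which acts inside the cell, 6.53 ± 1.25, 15.02 ± 3.71 and 9.23 ± 2.77.

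Markers of other cells were present in every library, and none was at 0. In saline-treated against wild-type bone, 6 of 7 osteocyte markers were higher and 1 lower, 3 of 8 osteoblast markers higher and 0 lower, 3 of 12 neutrophil markers higher and 0 lower, 0 of 10 B cell markers higher and 8 lower, 0 of 8 erythroid markers higher and 1 lower, and 11 of 17 muscle markers higher and 0 lower. In ABE-treated against saline-treated bone the corresponding counts were 1 and 1, 1 and 1, 0 and 10, 0 and 1, 0 and 7, and 15 and 0. In ABE-treated against wild-type bone they were 6 and 0, 3 and 0, 0 and 2, 0 and 9, 0 and 7, and 17 and 0. Of all genes, 27.5% were higher and 24.9% lower in saline-treated against wild-type bone. The shares were 22.9% and 25.1% in ABE-treated against saline-treated, and 34.6% and 35.6% in ABE-treated against wild-type bone. The osteoblast markers higher in the last comparison (37.5% of the list) were near that share. The part of neutrophils, B cells and erythroid cells in any member's difference was not measured. Their lists entered only 1 fit, together with the macrophage list as covariates, which does not separate the cell types.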

How the data were processed

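Poly(A) RNA of 36 tibiae was sequenced from stranded libraries as paired reads. Per the study's methods and processing notes, the authors aligned reads with STAR (version 2.73a in the notes) to GRCm38 and counted them over GENCODE M24 genes with QoRTs, and they deposited TPM per gene. How TPM were computed and whether counting used strand are not given in the sources used here. Multiplied by gene length less 218 bp and divided by 1 constant a library, the deposited TPM gave whole reads for 100% of values (within 0.01), 48064068 to 116206662 a library (median 78234452.5). The length used there was at least 1 bp, its value for genes of up to 219 bp. Replicates were numbered in accession order, and 0 columns stayed unmapped.

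TPM were divided by the median ratio of each library to the geometric means of 23632 genes above 0 in every library. limma 3.58.1 (R 4.3.3, trend) was fitted to log2(scaled TPM + 0.5) of 16123 genes that averaged 0.5 TPM or more over all 36 libraries, with sex as a covariate, Benjamini-Hochberg adjustment over all genes and a threshold of 0.05. Sex interactions came from means of group and sex. Correlations used residuals after group and sex and 100000 permutations (scipy 1.17.1). Where a symbol had 2 rows (*Atp6v1c1*), that with the higher mean was used. The fit was tested on simulated data. Mice within a group are separate animals. Described in full were *Tcirg1*, *Atp6v0d2*, *Clcn7*, *Ostm1*, *Ctsb*, *Ctsd* and *Lamp1*, and in each comparison the 5 members with the largest absolute log2 difference among those called. Other genes named were *Ctsk*, *Acp5*, *Car2* and, in each pathway list, the 2 with the largest called difference in saline-treated against wild-type mice. Members and lists were chosen with earlier results of these data known. Coordinates are from GENCODE M21 on GRCm38, and promoters from RefSeq. Alternatives were TPM as deposited, quantile normalization, pseudocounts of 0.1 and 1, no filter and a filter at 5 TPM, limma-voom on the recovered reads, fits without sex, within a sex, on the compared groups alone, without ABE replicate 1, without 3 libraries titled WT, and with osteoclast, muscle or marrow cell lists as covariates.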

Additional observations from a re-analysis of the deposited data

How the results depend on the processing

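No paired analysis was made, because the mice of the groups are separate animals and the labels used carry nothing that pairs them. Of 2441 values of single members under other settings, 2174 stayed on their side of the threshold, 178 were no longer past it, 61 newly passed it and 28 turned in direction. Direction was compared only where the main or the other fit called the member. Values called in neither fit count among the 2174 whatever their direction. The counts of members called (23 higher and 4 lower in saline-treated against wild-type, 13 and 8 in ABE-treated against wild-type, 2 and 22 in ABE-treated against saline-treated mice) moved by over 1.5 times as follows, and the cause was not tested except that the filter at 5 TPM left 19 members and the fits within a sex had fewer libraries. For saline-treated against wild-type, higher members were 4 with TPM as deposited, 15 with the filter (30.1% of all genes), 11 in females (10.5%) and 13 with the osteoclast covariate (28.3%), and lower members were 2 with the filter (22.1%) and 9 with the osteoclast covariate (24.8%). For ABE-treated against wild-type, higher members were 1 with TPM as deposited and 6 with the filter (30.5%), and lower members were 20 with TPM as deposited, 3 with the filter (35.9%), 5 in females (25.7%), 3 with the muscle covariate (14.4%) and 4 with the marrow covariates (17.8%). For ABE-treated against saline-treated mice, higher members were 1 with TPM as deposited and without the 3 libraries titled WT, and 0 with the filter, in males and with the muscle, marrow and osteoclast covariates, while lower members were 14 with the filter (28.8%), 1 in females and 0 with each of these covariates. The interaction with sex gave 2 members higher (10.6% of all genes) and 6 lower (11.4%) for saline-treated against wild-type and 3 lower (3.30%) for ABE-treated against saline-treated mice with the osteoclast covariate, and 2 lower (2.31%) in the latter without the 3 libraries titled WT. Quantile normalization, the other pseudocounts, no filter, limma-voom, no sex covariate and the compared groups alone moved no count by that much. They turned the direction of no value called in the main or the other fit. TPM as deposited are the values before libraries were scaled. In that setting the median log2 difference of all genes was -0.13 (saline-treated against wild-type), -0.42 (ABE-treated against wild-type) and -0.27 (ABE-treated against saline-treated). Of all genes, 6.42% were higher in the first comparison, 9.11% higher and 58.7% lower in the second, and 3.35% higher in the third. With TPM as deposited, the ABE-treated against wild-type differences that turned were *Atp6ap1* at -0.36, *Atp6v0d1* at -0.47, *Atp6v1c1* at -0.30, *Atp6v1d* at -0.16, *Atp6v1e1* at -0.34, *Atp6v1f* at -0.0050, *Atp6v1h* at -0.17, *Ctsa* at -0.44, *Ctsd* at -0.20, *Ctsl* at -0.29, *Ctsz* at -0.52, *Lamp1* at -0.0730 and *Lamp2* at -0.18, and *Atp6v0a2* was at -0.23 against saline. With the osteoclast covariate, those that turned were *Atp6v0e* at -0.0232, *Ctsa* at -0.0276, *Ctsz* at -0.0137, *Gusb* at -0.17 and *Ostm1* at -0.17 in saline-treated against wild-type, *Atp6v0d2* at 0.0671 and *Hexa* at 0.0932 in ABE-treated against saline-treated mice, and the sex interactions of *Atp6v1a* at -0.22 and *Atp6v1b2* at -0.23 in saline-treated against wild-type mice. With the marrow covariates they were *Ctsb* at 0.29 against wild-type and *Atp6v0a1* at 0.0098, *Ctsb* at 0.0302 and *Ctsc* at 0.0368 against saline in ABE-treated mice, and with the muscle covariate *Gusb* at 0.0542 in ABE-treated against wild-type mice. At 0 to 8 reads a library, *Atp6v1b1* is too shallow to compare.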
